A study of Rattus norvegicus with 18 samples.

Results

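The 10 genes described here belong to the circadian clock, the set of transcription factors and repressors that keeps daily time in most cells. They are Arntl, Per1, Per2, Per3, Cry1, Cry2, Nr1d1, Dbp, Tef and Bhlhe40, taken by symbol from the 18420 genes of a table of kidney cortex RNA-seq, and all 10 were present and passed the filter on low values (10 or more normalised reads in 6 or more libraries), as did 13988 genes in all. The cortex came from Zucker diabetic fatty (ZDF) rats, and each of the 3 groups had 6 libraries. RYGB rats were fa/fa, labelled diabetic, and had undergone Roux-en-Y gastric bypass (RYGB), surgery after which meals skip much of the stomach and the duodenum. Disease rats were fa/fa and diabetic without that operation, and healthy control rats were lean, non-diabetic fa/+ animals. RYGB and disease rats share the fa/fa genotype, which leaves the leptin receptor defective in the whole body. The sources used here do not give the age, the sex, the light cycle, the feeding state or the hour at which the tissue was taken, nor any sham operation.

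The clock is a feedback loop that turns once a day. Arntl, also called Bmal1, pairs with Clock or Npas2 and switches on genes that carry E-boxes, among them Per, Cry, Nr1d1, Dbp, Tef and Bhlhe40. The Per and Cry proteins build up and inhibit the pair, Nr1d1 represses Arntl through ROR elements, Bhlhe40 represses at E-boxes, and Dbp and Tef activate genes through D-boxes. In rodent tissues Arntl RNA is therefore high when Dbp RNA is low, with Nr1d1 ahead of Per2 and Cry1 in the cycle, and the kidney clock is known for daily rhythms in the handling of salt and water. A tissue piece holds the clock at the moment it was frozen, so a single library gives 1 point of the cycle.

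RefSeq's promoter table, on build GRCr8, held a window of 250 bases before to 50 bases after a transcription start for 9 of the 10 genes (Arntl under the symbol Bmal1). Both strands were searched for 4 motifs: the E-box CACGTG, its variant CACGTT, the D-box TTATGTAA and the core of the ROR element, TAGGTCA. The E-box was in the windows of Nr1d1, Tef and Bhlhe40 and in 6.42% of all 33469 windows of the table. CACGTT was in those of Per2, Cry2 and a second start of Nr1d1 and in 4.83% of all. The D-box stood in Per2 and in 0.893% of all windows, the ROR core in Arntl and in 2.63%. The windows of Per1, Per3 and Dbp held none of these letters. No 2 matches overlapped, and a match describes letters only. Shown are the activator, its repressor, an inhibitor, an output factor and Bhlhe40, in the direction of the gene, with the matched letters in capitals; positions count from the start site. They lie at chr1:176766078-176766377, plus strand (Arntl, ROR core from -16 to -10), chr10:84229405-84229704, minus strand (Nr1d1, E-box from -191 to -186), chr9:99496944-99497243, minus strand (Per2, D-box from -192 to -185 and CACGTT from -62 to -57), chr7:115206577-115206876, plus strand (Tef, E-box from -198 to -193) and chr4:143174200-143174499, plus strand (Bhlhe40, E-box from -220 to -215).
Arntl: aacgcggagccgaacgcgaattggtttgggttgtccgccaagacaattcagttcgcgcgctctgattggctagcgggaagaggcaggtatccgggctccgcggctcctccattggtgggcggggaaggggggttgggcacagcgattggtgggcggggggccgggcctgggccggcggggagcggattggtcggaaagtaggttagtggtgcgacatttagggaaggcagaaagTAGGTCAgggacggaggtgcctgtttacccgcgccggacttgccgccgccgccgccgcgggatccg
Nr1d1: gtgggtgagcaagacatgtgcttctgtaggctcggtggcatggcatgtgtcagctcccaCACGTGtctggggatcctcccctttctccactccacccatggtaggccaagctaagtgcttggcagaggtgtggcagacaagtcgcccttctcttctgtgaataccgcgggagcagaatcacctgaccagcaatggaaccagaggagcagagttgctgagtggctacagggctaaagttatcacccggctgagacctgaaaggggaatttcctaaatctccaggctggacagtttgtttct
Per2: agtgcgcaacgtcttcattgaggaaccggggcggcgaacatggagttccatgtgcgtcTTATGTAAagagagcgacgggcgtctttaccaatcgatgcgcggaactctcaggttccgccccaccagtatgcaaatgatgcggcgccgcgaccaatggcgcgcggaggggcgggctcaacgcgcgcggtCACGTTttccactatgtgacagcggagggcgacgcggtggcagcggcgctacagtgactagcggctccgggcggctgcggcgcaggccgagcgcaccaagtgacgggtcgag
Tef: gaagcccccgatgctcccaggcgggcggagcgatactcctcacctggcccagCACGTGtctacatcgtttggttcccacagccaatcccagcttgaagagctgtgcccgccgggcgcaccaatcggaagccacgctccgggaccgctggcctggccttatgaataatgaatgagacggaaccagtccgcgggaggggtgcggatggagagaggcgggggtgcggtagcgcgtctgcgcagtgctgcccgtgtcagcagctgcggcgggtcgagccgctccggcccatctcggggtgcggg
Bhlhe40: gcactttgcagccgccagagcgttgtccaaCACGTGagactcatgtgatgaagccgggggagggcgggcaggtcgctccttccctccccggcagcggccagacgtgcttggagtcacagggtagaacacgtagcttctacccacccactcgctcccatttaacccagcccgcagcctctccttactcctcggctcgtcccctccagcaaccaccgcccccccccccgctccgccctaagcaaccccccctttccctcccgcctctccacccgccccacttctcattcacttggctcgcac

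RYGB libraries held 12470525 to 42713246 reads in genes, disease libraries 8157977 to 37142922 and healthy control libraries 8116638 to 34169198. Values below are normalised reads, that is, read counts divided by a size factor per library. Markers of kidney cortex were present in every group: 5 podocyte genes summed to 13350 to 17080 in RYGB, 11550 to 21940 in disease and 12020 to 29520 in healthy control libraries. The 2 genes found of the thick ascending limb list summed to 44740 to 117900 in RYGB, 22820 to 71440 in disease and 72970 to 97380 in healthy control, so disease and healthy control did not overlap, and its part in the results below was not tested. Of other tissues, over all libraries, 3 adrenal cortex genes summed to 21.56 to 49.83, 4 of skeletal muscle to 9.581 to 68.69, 4 of liver to 18.34 to 232.1, 2 of renal medulla to 429.4 to 753.5 and 4 of adipose tissue to 519.7 to 1485, with Plin1 at 0 in disease and healthy control. In whole cortex, fewer cells of a type and less RNA per cell cannot be told apart.

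The activator Arntl differed more within each group than between the groups. It had 112.4, 51.04, 45.9, 468.5, 587 and 922.2 normalised reads in RYGB replicates 1 to 6. The disease libraries had 1188, 722.2, 86.25, 58.32, 78.62 and 174.8, and the healthy control libraries 757, 603.6, 578.5, 336.1, 66.4 and 88.05. Each group held both high and low libraries, and the 3 groups overlapped over nearly their whole range. The 8 highest libraries, at 468.5 or more, were RYGB replicates 4, 5 and 6, disease replicates 1 and 2 and healthy control replicates 1, 2 and 3. The highest library had 25.9 times the lowest.

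Dbp, an output factor that acts on D-boxes, ran the other way. RYGB replicates 1 to 6 had 5077, 9609, 7169, 1339, 1129 and 849.1 normalised reads. The disease libraries had 852.1, 1391, 5307, 6245, 7381 and 2271, and the healthy control libraries 1068, 2068, 2128, 3044, 5020 and 3475. The 7 libraries with the least Arntl (88.05 or under) all had 3475 or more of Dbp, and the 3 lowest libraries in Dbp (RYGB replicate 6, disease replicate 1 and healthy control replicate 1) were the 3 highest in Arntl. The log2 ratio of Arntl to Dbp lay between -7.53 and 0.12 in RYGB, between -6.72 and 0.48 in disease and between -6.22 and -0.50 in healthy control libraries. Tef, a related D-box factor, was lowest in the same library of each group as Dbp, over a smaller range, with 2579 to 6336 normalised reads in RYGB, 974.2 to 4293 in disease and 1268 to 4109 in healthy control. Per3, a Period protein of the inhibitor arm, had 264.7 to 948.7 in RYGB, 144.5 to 1014 in disease and 322.1 to 771.6 in healthy control libraries.

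**Figure D1:**
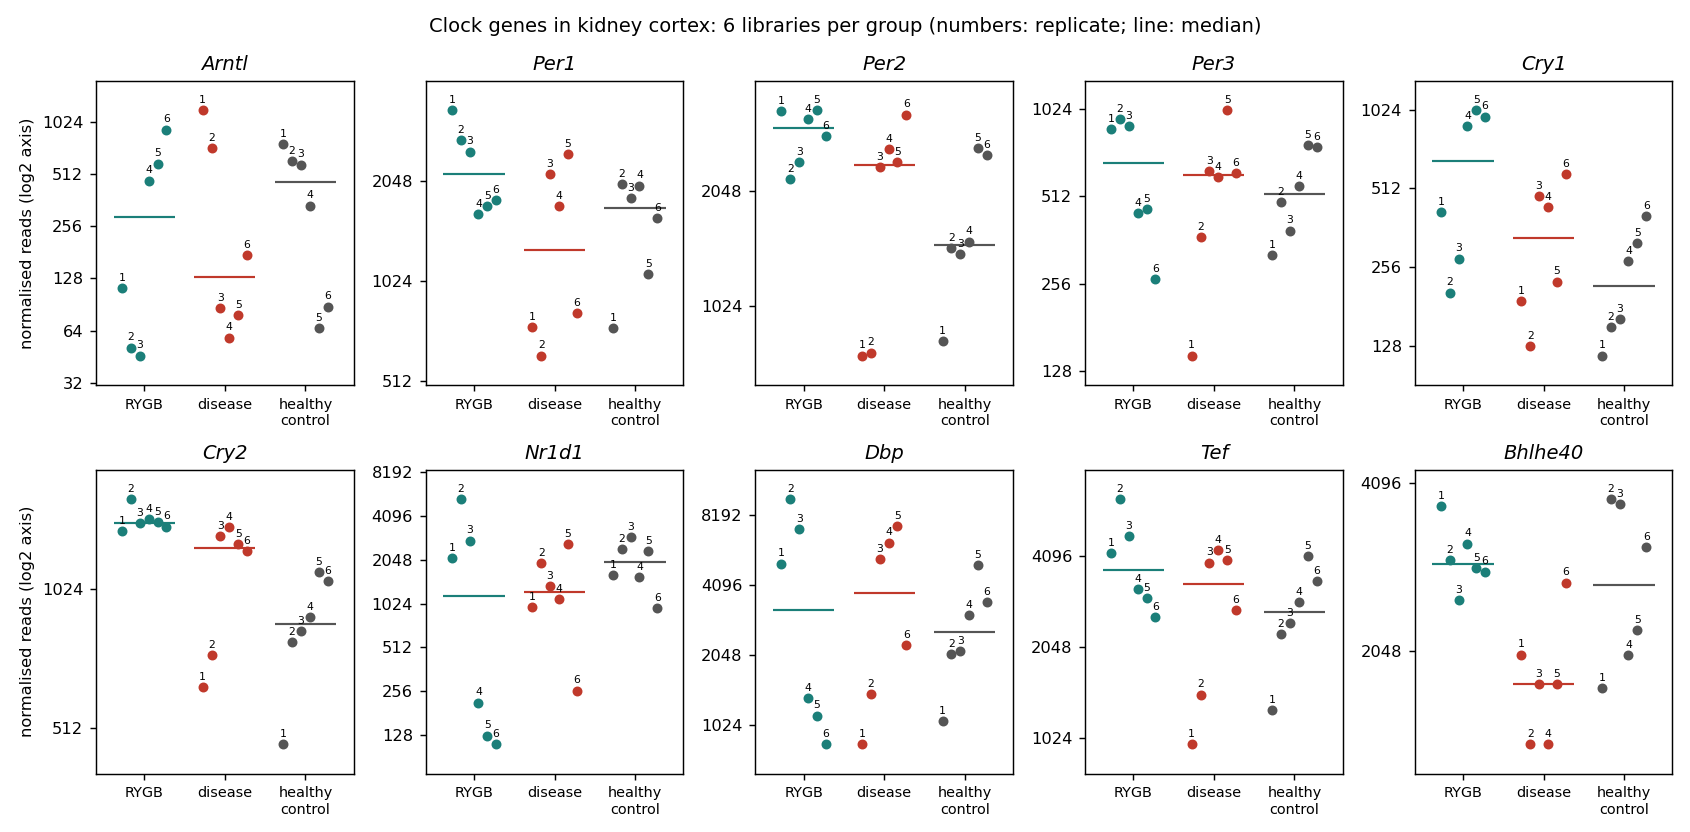
Normalised reads (vertical axes, log2 scale) of the 10 clock genes in RYGB, disease and healthy control cortex. Each point is a library with its replicate number and each line a group median; Arntl spans 45.9 to 1188 with high and low libraries in every group, and Nr1d1 spans 110.2 to 5364 in RYGB and 948.6 to 2957 in healthy control.

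Nr1d1, the repressor of Arntl also called Rev-erb alpha, had the widest range of the 10 genes. It had 2103, 5364, 2780, 213.3, 126.6 and 110.2 normalised reads in RYGB replicates 1 to 6. Disease libraries had 966.7, 1941, 1351, 1095, 2636 and 258, and healthy control libraries 1608, 2419, 2957, 1550, 2342 and 948.6. RYGB replicates 4, 5 and 6 and disease replicate 6 were the 4 lowest libraries, below every healthy control library, although RYGB replicates 1, 2 and 3 lay within or above the healthy control range. The mean of RYGB, 1783 ± 2090, and that of healthy control, 1971 ± 730 (SD, n = 6 each), therefore hide a 48.7-fold range in RYGB against a 3.12-fold range in healthy control. Nr1d1 overlaps Thra, a thyroid hormone receptor gene, on the other strand. No source used here says whether the counting used strand, without which reads from the overlap cannot be told apart. Thra itself varied only 2.07-fold over the 18 libraries, between 873.4 and 1804.

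The inhibitors Per1, Per2, Cry1 and Cry2 followed several patterns. Cry1 had 415.6, 204.2, 275.4, 884.5, 1016 and 961.7 normalised reads in RYGB replicates 1 to 6. It had 189.4, 127.4, 477.5, 435, 225.1 and 580.5 in disease libraries and 117.2, 150.5, 161.1, 269.8, 315.2 and 401.5 in healthy control libraries. RYGB replicates 4, 5 and 6 were the 3 highest of all 18 and disease replicate 6 the next, the same 4 libraries that were lowest in Nr1d1. Per2 lay between 2202 and 3331 in RYGB, where its highest library had 1.51 times the lowest. In disease it had 757.4 and 771.2 in replicates 1 and 2 and 2371 to 3247 in the others, and in healthy control it ranged from 827.1 to 2659. Per1, which also answers to glucocorticoids and to acute stimuli, had 1627 to 3335 in RYGB, 610.5 to 2460 in disease and 738.4 to 2005 in healthy control.

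Cry2 was the steadiest inhibitor after bypass. It had 1368, 1606, 1423, 1455, 1430 and 1400 normalised reads in RYGB replicates 1 to 6. Disease libraries had 627.8, 736.9, 1336, 1396, 1283 and 1237, and healthy control libraries 471.1, 784, 830, 890.5, 1116 and 1064. All 6 RYGB libraries were above all 6 healthy control libraries, whereas RYGB overlapped with disease. The lowest 2 disease libraries in Cry2, replicates 1 and 2, were also the lowest 2 of that group in Per1, Per2, Dbp and Tef.

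Bhlhe40, the E-box repressor also called Dec1, had 3725, 2983, 2529, 3188, 2883 and 2842 normalised reads in RYGB replicates 1 to 6. It had 2021, 1399, 1790, 1399, 1791 and 2716 in disease libraries and 1760, 3827, 3751, 2016, 2236 and 3140 in healthy control libraries. Of the disease libraries replicate 6 alone, at 2716, reached into the RYGB range. The healthy control libraries overlapped both groups, and disease replicates 2 and 4 lay below all of them.

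**Figure D2:**
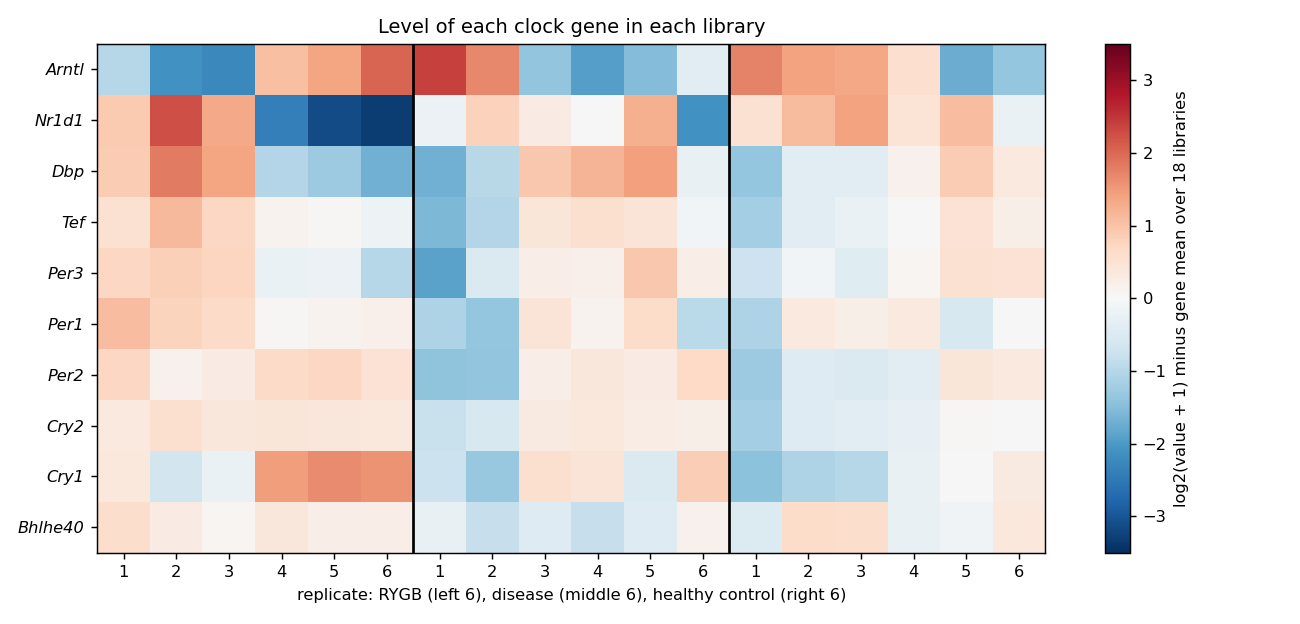
Colour gives log2(value + 1) minus the gene's mean over the 18 libraries, for 10 genes (rows) and the 6 libraries of RYGB, disease and healthy control (columns, left to right). Arntl and Dbp have opposite colours in most libraries, and Nr1d1 is darkest blue in RYGB replicates 4, 5 and 6, where Cry1 is red.

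Within groups, Arntl and Nr1d1 were among the most variable genes of the cortex. The SD of log2(value + 1) around the group means (15 residual degrees of freedom) was 1.74 for Arntl, rank 5 of 13988 tested genes from the highest, and 1.63 for Nr1d1, rank 9. Dbp followed with 1.23, rank 89. Cry1 (0.864), Per3 (0.761), Tef (0.677), Per2 (0.667) and Per1 (0.65) were at ranks 332 to 998. Cry2 (0.388) and Bhlhe40 (0.363) were at ranks 4470 and 5102, nearer to the median of all tested genes, 0.301. Among the 10620 genes with a geometric mean of about 100 or more, Arntl ranked first and Nr1d1 next. Group by group, the SD of log2 Nr1d1 was 2.49 in RYGB, 1.16 in disease and 0.59 in healthy control. For Per2 it was lowest in RYGB, with 0.25 in RYGB, 0.94 in disease and 0.62 in healthy control, and for Cry2 the SD was 0.080 in RYGB, 0.50 in disease and 0.45 in healthy control. These differences in spread were not tested.

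**Figure D3:**
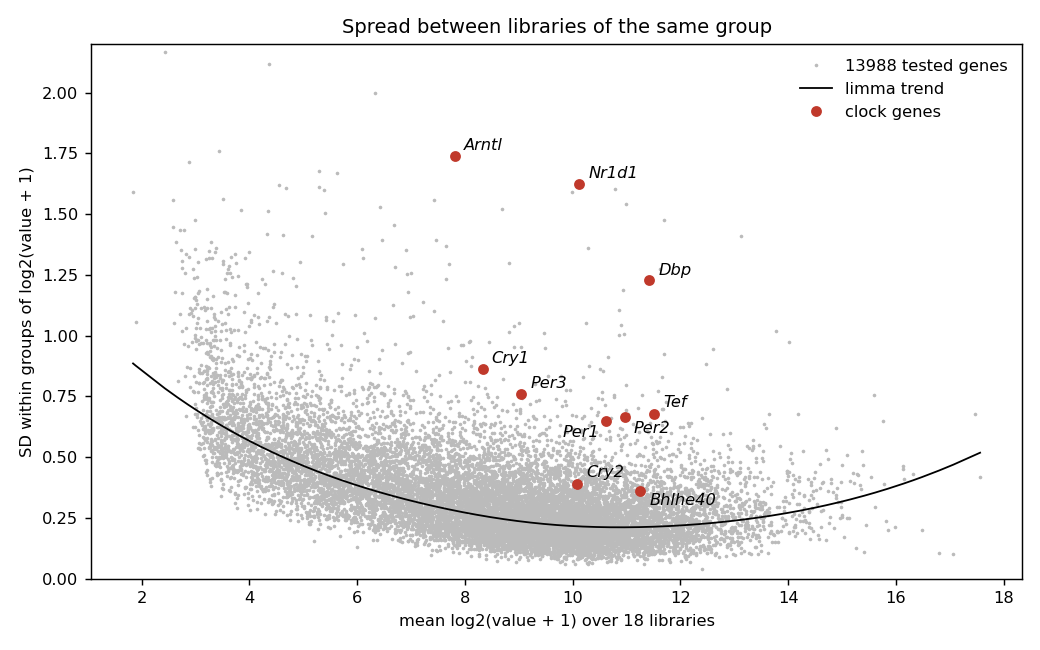
SD within groups of log2(value + 1) (vertical axis) against mean log2(value + 1) over the 18 libraries (horizontal axis). Grey points are the tested genes, the black line is limma's trend of the SD with the mean, and red points are the clock genes; Arntl (1.74), Nr1d1 (1.63) and Dbp (1.23) lie far above the line.

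The first comparison, disease against healthy control, asks which transcripts go with diabetic kidney disease, and it called 0 of the 10 clock genes. Tests were limma's, with p-values adjusted by Benjamini-Hochberg over all 13988 genes and a call at an adjusted p below 0.05. The background was 1.61% of genes called (225), 0.579% higher and 1.03% lower. No clock gene had libraries that did not overlap between these groups, against 1.24% of all genes. Bhlhe40 alone had an unadjusted p below 0.05, as did 11.1% of all genes; it averaged 1853 ± 488 in disease and 2788 ± 904 in healthy control (log2 fold change -0.56 ± 0.19 SE, adjusted p = 0.209). edgeR and DESeq2 also called 0, with 1 gene at an unadjusted p below 0.05 by each. The intervals are wide: the 95% interval of the log2 fold change ran from -2.34 to 1.31 for Arntl, from -2.43 to 0.97 for Nr1d1 and from -1.06 to 1.52 for Dbp. Cry2, with the second lowest spread, had an interval from -0.080 to 0.77. Of the 10 fold changes 4 were positive, against 50.4% of all genes, and their median on the log2 scale was -0.070, against 0.0016.

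The second comparison, RYGB against disease, asks what differs after bypass among fa/fa rats. Bhlhe40 rose: it averaged 3025 ± 404 in RYGB and 1853 ± 488 in disease, a ratio of 1.63 (log2 fold change 0.74 ± 0.19, adjusted p = 0.0361). It was the 1 call among the 10 genes, where 3.95% of all genes were called (1.84% higher, 2.1% lower). Libraries overlapped for all 10, whereas they did not for 2.6% of all genes (1.12% higher). Leaving out disease replicate 1, 2 or 4 or RYGB replicate 1, 2, 4, 5 or 6 ended the call (adjusted p 0.0587 to 0.0885). Per1 (2283 ± 684 in RYGB, 1417 ± 797 in disease; 0.84 ± 0.33, adjusted p = 0.153) and Cry2 (1447 ± 83.3 in RYGB, 1103 ± 332 in disease; 0.46 ± 0.20, adjusted p = 0.21) had unadjusted p-values below 0.05, as did 20.7% of all genes. For Nr1d1 the ratio of means was 1.30 while the log2 fold change was -0.72 ± 0.82, and the interval from -2.42 to 0.98 covers both directions. Of the 10 log2 fold changes 8 were positive, against 49.9% of all genes, with a median of 0.53 against -0.00087. Many of these genes vary together between libraries (21 of 45 pairs correlated, below). Such counts, in each comparison, are therefore not of 10 independent genes.

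In the same comparison 2 immediate-early genes, which cells switch on within minutes of a stimulus, were called. Of 14 tested immediate-early and heat shock genes, Junb (2193 ± 1220 in RYGB, 714 ± 197 in disease; 1.48 ± 0.31, adjusted p = 0.011) and Jun (4846 ± 2109 in RYGB, 1990 ± 325 in disease; 1.16 ± 0.29, adjusted p = 0.0281) were called, both higher. By limma 6 had an unadjusted p below 0.05, as did 20.7% of all genes. Among the 6 the heat shock gene Hsph1 was lower in RYGB (-0.63 ± 0.27, limma's unadjusted p = 0.0306) and the others were higher. DESeq2 also called Btg2 and Dusp1. For disease against healthy control limma called 0 of the 14 (4 at an unadjusted p below 0.05, against 11.1% of all genes), as did edgeR and DESeq2. For RYGB against healthy control limma and edgeR called 0 (3 at an unadjusted p below 0.05, against 26.2% of all genes by limma) and DESeq2 called Jun and Junb. Of these 3, Hsph1 was again lower in RYGB (-0.79 ± 0.27) and Jun and Junb were higher. Their part in the Bhlhe40 result was not tested.

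The last comparison, RYGB against healthy control, sets operated fa/fa rats beside lean rats. Cry2 rose, with 1447 ± 83.3 in RYGB and 859.2 ± 231 in healthy control, a ratio of 1.68 (log2 fold change 0.80 ± 0.20, adjusted p = 0.0344). Again this was 1 of 10, with 4.44% of all genes called (2.46% higher, 1.98% lower). The call ended without healthy control replicate 1, 2 or 3 or RYGB replicate 1, 2, 4, 5 or 6 (adjusted p 0.0591 to 0.0864). Libraries of the compared groups did not overlap in Cry2 alone of the 10, and in 3.22% of all genes (1.82% higher). Cry2, Cry1 and Per2 had an unadjusted p below 0.05, as did 26.2% of all genes, and 8 of the 10 fold changes were positive, against 48.4%. Cry1 averaged 626.2 ± 368 in RYGB and 235.9 ± 111 in healthy control (1.28 ± 0.44, adjusted p = 0.0887) and was called by DESeq2 (adjusted p = 0.03) and without RYGB replicate 3 (adjusted p = 0.046). Per2 averaged 2881 ± 474 in RYGB and 1731 ± 716 in healthy control (0.83 ± 0.34, adjusted p = 0.137), and it was called when those groups were fitted alone (adjusted p = 0.0413). Nr1d1 had a log2 fold change of -1.45 ± 0.82 (adjusted p = 0.258) and Arntl one of -0.49 ± 0.88 (adjusted p = 0.74). The comparisons share libraries, so their calls are not independent.

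Fkbp5, a target of the glucocorticoid receptor, was the 1 called gene of 9 tested in the glucocorticoid list, which also holds Per1, in the last comparison. It averaged 4493 ± 750 in RYGB and 2355 ± 869 in healthy control (log2 fold change 0.999 ± 0.24, adjusted p = 0.0263), and its libraries did not overlap either. In that comparison 4.44% of all genes were called and 3.22% had libraries that did not overlap. For RYGB against disease limma and edgeR called 0 of the 9 and DESeq2 called Dusp1, and for disease against healthy control all 3 tools called 0. Per1 aside, 2 of 8 had an unadjusted p below 0.05 by limma in each, against 20.7% and 11.1% of all genes in the same order. Alas2, the 1 red cell marker of 4 in the table, had 371.4 to 951.7 in RYGB, 32.25 to 234 in disease and 2.453 to 282.6 in healthy control libraries. The part of these in the Cry2 result was not tested.

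The phase relation was examined over the 18 libraries after the group means were subtracted, with permutations within groups (100000, two-sided) and adjustment over the 45 pairs of the 10 genes. Arntl and Dbp were opposed (Pearson's r = -0.949, permutation p = 1e-05, the smallest 100000 permutations can give, adjusted p = 7.5e-05; Spearman's rho = -0.944, permutation p = 1e-05). Without the libraries farthest from the median of Arntl, disease replicate 1 and RYGB replicate 6, r was -0.927. The relation held in each group of 6 by exact permutation: r was -0.991 in RYGB (p = 0.00278, adjusted p = 0.025), -0.970 in disease (p = 0.00417, adjusted p = 0.0357) and -0.876 in healthy control (p = 0.00694, adjusted p = 0.0223). In RYGB the libraries formed sets of 3 with a gap between 112.4 and 468.5 in Arntl, so r there owes much to that gap. It was not computed within the sets. RYGB replicates 1 to 3 and 4 to 6 were also apart in Nr1d1 (2103 or more against 213.3 or less). In Cry1 they had 415.6 or less against 884.5 or more, so r among these genes in RYGB owes much to the same gap. Over all 18, healthy control replicate 4 (336.1) and disease replicate 6 (174.8) lay between the high and the low libraries. With depth regressed out r was -0.95.

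Tef and Per3 behaved like Dbp. Arntl correlated with Tef at -0.912 (permutation p = 1e-05, rho = -0.922, permutation p = 1e-05) and with Per3 at -0.897 (permutation p = 2e-05, rho = -0.874, permutation p = 8e-05). Dbp correlated with Tef at 0.909 and with Per3 at 0.901 (permutation p = 1e-05 for both; rho = 0.917 and 0.897). Arntl was also opposed to Cry2 (r = -0.732, adjusted p = 3e-04), Per2 (-0.601, adjusted p = 0.0286) and Per1 (-0.573, adjusted p = 0.047), where Spearman's rho of the last 2 (-0.461 and -0.494) did not pass (adjusted permutation p 0.115 and 0.112). Within groups, Arntl with Per2 had r = 0.662 in RYGB (exact permutation p = 0.168, adjusted p = 0.288), -0.901 in disease (p = 0.0514, adjusted p = 0.129) and -0.923 in healthy control (p = 0.00278, adjusted p = 0.0139), where alone it passed, and the difference between groups was not tested. Arntl with Cry2 had r = -0.39 in RYGB, -0.981 in disease and -0.803 in healthy control. It did not pass in RYGB (adjusted exact permutation p = 0.672) and passed in disease (0.0357) and healthy control (0.0446). Arntl with Per1 had r = -0.813 in RYGB, -0.86 in disease and 0.061 in healthy control, and passed in no group. In all, 21 of 45 pairs passed by Pearson's r, 14 of them positive and 7 negative, and 14 pairs passed by Spearman's rho. By exact permutation within groups, 11 pairs passed in RYGB, 7 in disease and 21 in healthy control.

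**Figure D4:**
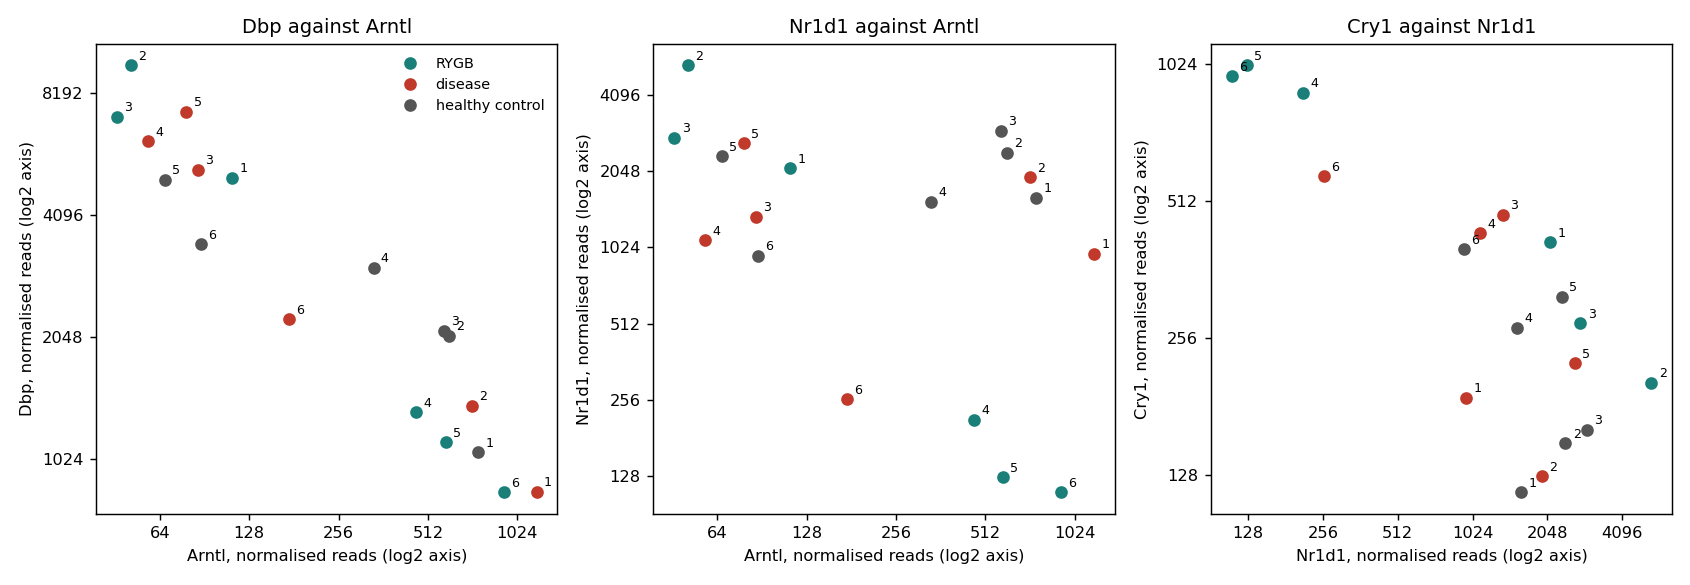
Normalised reads of Dbp against Arntl, Nr1d1 against Arntl and Cry1 against Nr1d1 (log2 axes), 1 point per library with its replicate number, coloured by group. Dbp is lower where Arntl is higher in all 3 groups (r = -0.949 after subtracting group means), whereas among libraries high in Arntl, Nr1d1 runs from 966.7 to 2957 in disease 1 and 2 and healthy control 1 to 3 and from 110.2 to 213.3 in RYGB 4 to 6.

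Between Arntl and its repressor Nr1d1, over the 18 libraries, r was -0.516 (permutation p = 0.058, adjusted p = 0.1; rho = -0.511, permutation p = 0.0695), and -0.457 without the libraries farthest from the median of Arntl, RYGB replicate 6 and disease replicate 1. With a replicate block, that is, replicate number taken out as well, r was -0.843 (adjusted permutation p = 0.0543). Replicate numbers did not pair RYGB libraries with the other groups. Same-numbered libraries correlated at -0.557 to 0.309 with disease and -0.31 to 0.0142 with healthy control. Block values of r, here and for Dbp with Nr1d1 below, therefore cannot be read as a stronger relation. By group, r of Arntl with Nr1d1 was -0.980 in RYGB (exact permutation p = 0.00972, adjusted p = 0.0398), -0.056 in disease (p = 0.929, adjusted p = 0.961) and 0.374 in healthy control (p = 0.439, adjusted p = 0.76). Libraries high in Arntl had 110.2 to 213.3 of Nr1d1 in RYGB (replicates 4 to 6), 966.7 and 1941 in disease (replicates 1 and 2) and 1608 to 2957 in healthy control (replicates 1 to 3). Dbp and Nr1d1 had r = 0.695 (permutation p = 0.0247, adjusted p = 0.0504; rho = 0.693, permutation p = 0.0182), 0.555 without RYGB replicates 2 and 6 and 0.906 with the replicate block (adjusted permutation p = 0.0027). Here r was 0.997 in RYGB, 0.289 in disease and -0.089 in healthy control. The difference in r between groups was not tested. In RYGB each r owes much to the gap between replicates 1 to 3 and 4 to 6, and r within those sets was not computed. The order of the 6 RYGB libraries was the same in Dbp and Nr1d1 (exact permutation p = 0.00139, adjusted p = 0.0208).

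Cry1 was opposed to Nr1d1 (r = -0.786, permutation p = 0.00108, adjusted p = 0.00381; rho = -0.775, permutation p = 0.00171) and went with Per2 (r = 0.743, permutation p = 2e-05; rho = 0.796, permutation p = 1e-05). Without disease replicate 2 and RYGB replicate 2 the first was -0.739, and without disease replicates 1 and 2 the second was 0.696. By group, r of Cry1 with Nr1d1 was -0.982 in RYGB, -0.635 in disease and -0.518 in healthy control. By exact permutation it passed in RYGB alone (adjusted p = 0.025, against 0.2865 in disease and 0.535 in healthy control). With Arntl, Cry1 had r = 0.974 in RYGB (exact permutation p = 0.00833, adjusted p = 0.0375), -0.682 in disease (p = 0.165, adjusted p = 0.298) and -0.912 in healthy control (p = 0.00556, adjusted p = 0.0208). Over all 18 it was -0.042. Bhlhe40 stood outside these relations: its r with the other 9 genes lay between -0.108 and 0.294, and 0 of the 9 passed (adjusted permutation p from 0.451 to 0.929). Of the genes whose promoter windows hold an E-box, Bhlhe40 and Tef had r = 0.049 with each other. Nr1d1 had r = -0.108 with Bhlhe40 and 0.37 with Tef (adjusted permutation p = 0.151).

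**Figure D5:**
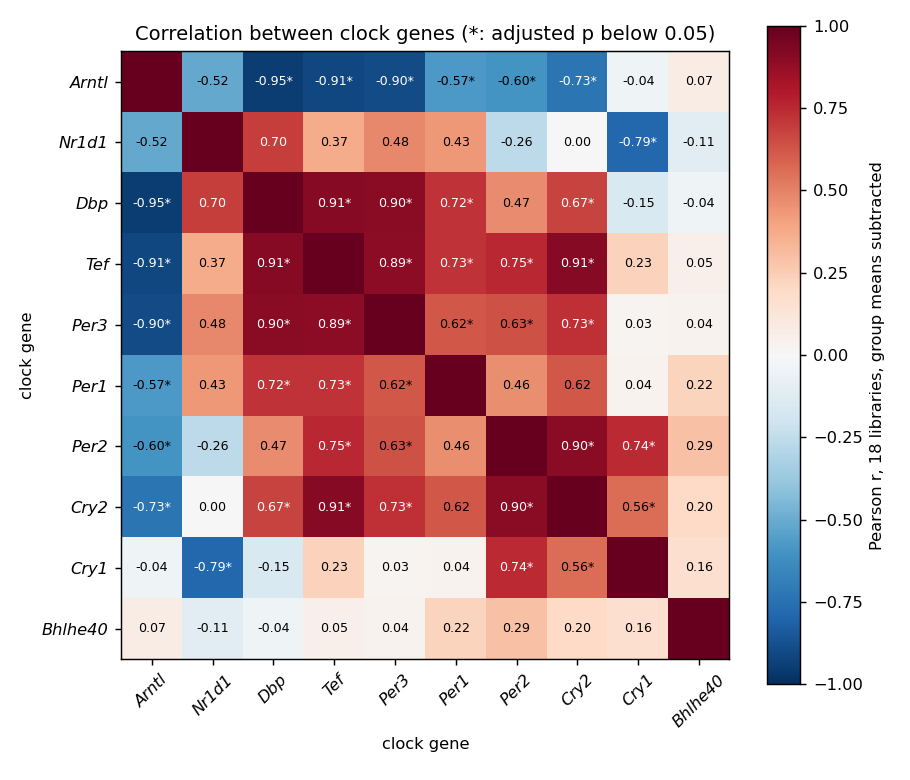
Pearson's r between each pair of the 10 clock genes over 18 libraries with group means subtracted; stars mark an adjusted permutation p below 0.05 over 45 pairs. Arntl is blue (negative) against Dbp, Tef, Per3, Cry2, Per2 and Per1, and the row of Bhlhe40 is pale throughout.

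Among 9413 other genes with a symbol and a mean of at least 100, Dbp was the gene with the lowest r with Arntl and Arntl the lowest with Dbp. The next lowest with Arntl was Ciart, a repressor of the clock (r = -0.945, which was 0.979 with Dbp, the highest of all), followed by Tef, Per3, Phyhipl, Epm2a, Stk35 and Gcnt2 (-0.912 to -0.825). The highest with Arntl were Ddit4l2 (0.939), Zscan20, Ndrg1, Eepd1, Creb3l1, Ypel2, Sytl3 and Ncald (0.854). Highest with Dbp after Ciart were Phyhipl, Tef, Per3, Hes6, Epm2a, Paqr5 and Stard5 (0.912 to 0.828), and lowest after Arntl were Zscan20, Ndrg1, Ddit4l2, Nfil3, Creb3l1 and the lactate carrier gene Slc16a1 (-0.939 to -0.868). These are descriptions over 18 libraries with group means subtracted and depth taken out by the size factors alone, with no test. Ciart ran between 13.17 and 556.9 normalised reads in RYGB, between 4.983 and 316.9 in disease and between 16.43 and 180.8 in healthy control. Ndrg1, an abundant stress-responsive gene, ran between 26200 and 98680 in RYGB, between 36170 and 110400 in disease and between 41350 and 79810 in healthy control.

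Of 20 further clock genes listed 17 were tested, and limma called 0 in any of the 3 comparisons. At an unadjusted p below 0.05 there were 2 for RYGB against disease, 1 for RYGB against healthy control and 0 for disease against healthy control. Of all genes 20.7%, 26.2% and 11.1% had such a p by limma, in the same order. DESeq2 called Timeless, a clock-associated gene of DNA replication, for RYGB against disease; the medians of the log2 fold changes of the 17 were 0.042 for RYGB against disease, 0.0078 for RYGB against healthy control and -0.085 for disease against healthy control. Of these 17 genes, Nono, an RNA-binding partner of Per, and the kinase gene Csnk1d had the highest means among those without a call (Nono 5440 ± 586 in RYGB, 5458 ± 1019 in disease and 5331 ± 805 in healthy control; Csnk1d 3482 ± 324 in RYGB, 3463 ± 242 in disease and 3212 ± 156 in healthy control). The genes named next were chosen after their values were seen. Npas2, the partner of Arntl, had r = 0.616 with it, but in RYGB it stayed at 49.52 to 108.1 normalised reads, also in replicates 4 to 6, whereas it reached 622.9 in disease and 394 in healthy control. Nfil3, which binds D-boxes as a repressor, had r = -0.89 with Dbp and 422.3 to 538.6 in RYGB replicates 4, 5 and 6, against 40.53 to 147.7 in RYGB replicates 1, 2 and 3. Nr1d2, the sister of Nr1d1, had r = 0.773 with Dbp and 203.6 to 454 in RYGB replicates 4 to 6.

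Few genes of the remaining lists were called. Of 16 tested output genes of the clock, Cdkn1a, a cell cycle inhibitor that answers to p53 as well, rose in disease (446.6 ± 76 against 123.7 ± 38.1 in healthy control, log2 fold change 1.89 ± 0.28, adjusted p = 0.000976) and in RYGB (408.9 ± 190 against the same healthy control mean, 1.62 ± 0.28, adjusted p = 0.00322). The other 15 were not called in any comparison by limma, edgeR or DESeq2. Of all genes, limma called 1.61% for disease against healthy control and 4.44% for RYGB against healthy control. For RYGB against disease limma called 0 of the 16 and 2 had an unadjusted p below 0.05, as did 20.7% of all genes (26.2% for RYGB against healthy control). The cold-inducible genes Cirbp and Rbm3 were not called by any of the 3 tools, though both had an unadjusted p below 0.05 by limma for RYGB against disease and Cirbp for RYGB against healthy control: Cirbp averaged 1486 ± 279 in RYGB, 935.1 ± 263 in disease and 901.3 ± 552 in healthy control, and Rbm3 2417 ± 938 in RYGB, 1651 ± 278 in disease and 1829 ± 782 in healthy control.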

How the data were processed

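Libraries of polyadenylated RNA were made from frozen kidney cortex with a stranded kit, per the labels' protocols. Each gene has a deposited signal value: its read count, which the authors divided by the library's size factor. HTSeq 0.6.1p1, DESeq2 (no version), FastQC 0.11.2, MultiQC 0.9 and build Rnor 5.0 are named in the submitters' processing notes. The aligner and strand setting are in none of the sources used here. Of 18423 rows, 3 name no gene and were left out (27.6 to 43.2% of reads in no feature, 13.5 to 18.1% not unique, 0.0695 to 0.114% ambiguous). At least 99.98% of the values of each library were whole multiples of 1 read within 0.01, and the whole reads were recovered for edgeR, which called 224 genes in disease and 846 in RYGB, each set against healthy control, and 629 in RYGB set against disease, and for DESeq2.

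Main tests used limma 3.58.1 under R 4.3.3 on log2(value + 1), with its trend option and 3 group means over 18 libraries; fold changes on this scale understate those of low genes. Two-sided p-values were adjusted (Benjamini-Hochberg) over 13988 genes. edgeR 4.0.16 and DESeq2 1.42.0 were alternatives, with pseudocounts of 0.5 and 5, no filter, a minimum of 50, quantile normalization, the compared groups alone, a replicate block and each library left out. The tests were checked on simulated data. The labels do not say that libraries are separate animals, so the p-values rest on how far libraries differ, which may be technical. All pairs of libraries of a group differed beyond counting error, with a chi-square of at least 21.4 per degree of freedom.

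Replicate numbers recur in the groups. Deviations of same-numbered libraries correlated at 0.131 to 0.325 between disease and healthy control. There 3 libraries correlated best with their own number, whereas numbers 2, 3 and 4 correlated best with another. The numbers were taken to pair disease with healthy control on the positive correlations, not on the labels, so this pairing is uncertain. The main tests did not use it. The correlations were -0.557 to 0.309 between RYGB and disease and -0.31 to 0.0142 between RYGB and healthy control. In both, 0 libraries correlated best with their own number, so a block over all 3 groups takes out numbers that do not pair RYGB.

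The 10 genes and all lists were chosen with earlier results of these data known. Named genes are the 10, called members of the other lists (up to 5), the 2 highest members of a list without a call, and the 8 highest and 8 lowest correlations with Arntl and Dbp; the text gives examples, and some genes, with their results under any tool, are not reported here. Of 137 listed symbols 114 were found in the table, 1 under another symbol, and the rest were not analysed here.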

Additional observations from a re-analysis of the deposited data

Results flagged for a closer look

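1 library stood far from its group among 25 genes searched in 3 groups (75 sets of 6 libraries), where chance gives about 1 in 20 sets. Cry2 had 1606 normalised reads in RYGB replicate 2, and the other 5 RYGB libraries had 1368 to 1455. The same library was the highest of all 18 in Nr1d1, Dbp and Tef, at 5364, 9609 and 6336. Without it the call of Cry2 for RYGB against healthy control ended (adjusted p = 0.0655 by limma).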

How the results depend on the processing

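For disease against healthy control 0 of the 10 genes were called under every alternative run. That includes the fit of those groups alone with a replicate block, whose pairing is uncertain. For RYGB against disease the count was 1 except with the replicate block (0; Bhlhe40, adjusted p = 0.0607) and 0 to 1 with a library left out. For RYGB against healthy control it was 2 with the groups fitted alone, with DESeq2 and with the replicate block (Per2 joined Cry2 in the first, Cry1 in the other two), and 0 to 2 with a library left out. Genes called numbered 225, 552 and 621 for disease against healthy control, RYGB against disease and RYGB against healthy control. edgeR gave 224, 629 and 846. They were 143 with a minimum of 50 and 410 with DESeq2 for the first, 1098 with DESeq2 for the second, and 1442 with the groups alone and 1602 with DESeq2 for the last. With a library left out they ranged from 124 to 310, 259 to 817 and 203 to 1501. For the first comparison the count moved by over 1.5 times without healthy control replicate 2, 3 or 6 or disease replicate 3 or 4 (124 to 140). For the second it was 259 to 362 without disease replicate 1 or 2 or RYGB replicate 1, 2, 4, 5 or 6. For the last it was 1501, 1403 and 1057 without healthy control replicate 4, RYGB replicate 3 or disease replicate 6, and 203 to 353 without any other healthy control or RYGB library. The replicate block for disease and healthy control alone, added after seeing the data, gave 252.

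The r of Arntl with Dbp stayed between -0.961 and -0.938 with a library left out, that of Arntl with Nr1d1 between -0.592 and -0.426, that of Dbp with Nr1d1 between 0.618 and 0.762. With the replicate block, whose numbers did not pair RYGB with the other groups, r was -0.843 for Arntl with Nr1d1, which did not pass. For Dbp with Nr1d1 it was 0.906, which passed. Dbp with Nr1d1 also passed after quantile normalization (0.716), and 14 to 24 pairs passed with a library left out. Signs turned only in fold changes that were not called. For disease against healthy control they became positive for Per3 (0.041 by edgeR, 0.037 by DESeq2) and Tef (0.077 by both). For RYGB against disease they turned for Arntl (-0.0085 after quantile normalization, -0.0074 by edgeR, -0.079 by DESeq2), Nr1d1 (0.38 by edgeR, 0.37 by DESeq2) and Dbp (0.11 by edgeR, 0.10 by DESeq2). With a library left out, disease against healthy control ranged from -0.065 to 0.37 for Per2, -0.33 to 0.24 for Per3, -0.031 to 0.59 for Dbp and -0.23 to 0.24 for Tef. RYGB against disease ranged from -0.41 to 0.55 for Arntl, -0.062 to 0.51 for Per3 and -0.45 to 0.25 for Dbp, and RYGB against healthy control from -0.22 to 0.48 for Dbp. The cause was not tested. Depth was lowest for Arntl: the lowest count of reads of a clock gene in a library was 34, of Arntl in RYGB replicate 2. With 6 libraries a group and within-group ranges of up to 48.7-fold, the intervals of Arntl, Nr1d1 and Dbp leave changes of either direction possible.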
